A study of Mus musculus with 4 samples.

Results

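The 10 genes described here encode subunits of voltage-gated calcium channels, 9 genes in all, and Rrad, a small GTPase that acts on those channels. They were taken by gene name from the authors' table, which holds 48432 gene rows, and each name matched 1 row. Polyadenylated RNA was sequenced from cardiomyocytes that were isolated from perfused mouse hearts. The MHC control group, with 2 libraries, came from mice of the genotype given as MHC, and the Rbfox2 OE group, also with 2 libraries, came from mice with the RbFox2 genotype, which overexpress RBFOX2, an RNA-binding regulator of splicing. Both groups had a C57BL x FVB background and ate doxycycline diet for 3 days, so the controls carry the same drug exposure. The labels do not spell out MHC, and they give no age, no promoter or induction scheme for the transgene and no number of hearts per library. The series title names the non-muscle isoform of RBFOX2 and concerns conduction defects in myotonic dystrophy.

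A voltage-gated calcium channel is built around a pore-forming alpha1 subunit, which senses the membrane voltage and lets calcium in. An intracellular beta subunit brings the pore to the surface membrane and sets its gating, and an extracellular alpha2delta subunit raises surface density. In ventricular muscle the L-type channel admits the calcium that triggers release from the sarcoplasmic reticulum, while T-type channels are known from the pacemaker tissue and from the embryonic heart. Rrad belongs to the RGK family of GTPases, which bind beta subunits and inhibit the channel, and phosphorylation by protein kinase A relieves that inhibition.

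Sequences are shown for the genes on which the comparison turns, and first for the promoters of the subunits of the main ventricular L-type channel. The windows come from RefSeq (GRCm38.p6) and run from 250 bases before to 50 bases after an annotated transcription start, 300 bases in all, on the strand of the gene. Of the 10 genes, 7 had an entry, with 13 starts between them. For genes with several starts the one farthest upstream is printed, since the data do not separate starts. Capitals mark matches, on either strand and with overlaps allowed, to any of 5 motifs: the TATA box TATAAA, the GC box GGGCGG, the GATA motif GATAAG, the E-box CACGTG and a MEF2-type motif.
Cacna1c, chr6:119196360-119196659, minus strand: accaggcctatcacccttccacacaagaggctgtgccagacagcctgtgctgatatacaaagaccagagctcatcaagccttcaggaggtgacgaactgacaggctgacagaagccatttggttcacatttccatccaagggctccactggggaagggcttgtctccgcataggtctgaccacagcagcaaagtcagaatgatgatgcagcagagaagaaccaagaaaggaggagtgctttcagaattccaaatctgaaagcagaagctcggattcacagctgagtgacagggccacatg
Cacnb2, chr2:14604056-14604355, plus strand: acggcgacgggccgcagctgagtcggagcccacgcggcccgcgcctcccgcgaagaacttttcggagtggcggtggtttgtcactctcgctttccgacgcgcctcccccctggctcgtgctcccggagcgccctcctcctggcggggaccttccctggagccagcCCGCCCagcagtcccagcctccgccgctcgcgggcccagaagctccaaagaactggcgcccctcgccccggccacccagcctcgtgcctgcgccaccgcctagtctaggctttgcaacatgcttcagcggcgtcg
Cacna2d1, chr5:15934441-15934740, plus strand: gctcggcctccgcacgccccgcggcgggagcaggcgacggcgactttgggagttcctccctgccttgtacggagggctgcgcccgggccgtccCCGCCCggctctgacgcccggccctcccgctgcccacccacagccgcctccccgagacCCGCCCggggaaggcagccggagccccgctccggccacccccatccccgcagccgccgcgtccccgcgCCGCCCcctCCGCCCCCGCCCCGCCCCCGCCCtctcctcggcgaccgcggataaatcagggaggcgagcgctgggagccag

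None of the 5 motifs is held by all 3 windows. The Cacna1c window holds 0 matches and has a GC content of 51.3%, near the median of 52.7% over all 32851 RefSeq windows. The window of another Cacna1c start differs from it, with a GC content of 81.3% and 6 matches to the GC box. The Cacnb2 window has 1 match to GGGCGG and a GC content of 71.7%. That of the other Cacnb2 start has a GC content of 44.0% and 0 matches. The Cacna2d1 window has 7 matches to GGGCGG and a GC content of 80.0%, above that of 98.95% of windows. Across all windows, 35.7% hold the GC box, 13.6% the TATA box, 7.44% the GATA motif, 7.15% the E-box and 3.69% the MEF2-type motif. A match is a run of letters and says nothing about binding.

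RBFOX proteins are known to bind UGCAUG in RNA, so the hexamer TGCATG was looked for on the sense strand of spliced transcripts. For each gene 1 transcript was searched, the longest protein-coding one in the basic set of GENCODE M21. Longer transcripts are annotated for Cacna1d (9658 bases against 8688 searched) and Cacnb2 (5030 against 3945). The counts of sites hold only for the transcripts searched. Introns, where RBFOX proteins steer splicing, were not searched. Each site in a 3′ UTR of the 10 genes is printed with 11 flanking bases on either side and the hexamer in capitals, on GRCm38.
Cacna1c 3′ UTR base 1544, exon 47, chr6:118592332-118592359, minus strand: gtatattttgcTGCATGtaaagtaaatc
Cacna1c 3′ UTR base 5686, exon 47, chr6:118588190-118588217, minus strand: caagggctttaTGCATGctaaacaagtg
Cacna1d 3′ UTR base 286, exon 47, chr14:30041771-30041798, minus strand: cccatccagggTGCATGcccatgcccct
Cacna2d1 3′ UTR base 162, exon 39, chr5:16370825-16370852, plus strand: ccatcgctggcTGCATGtcagggtgttg
Cacna2d1 3′ UTR base 896, exon 39, chr5:16371559-16371586, plus strand: caagggtctttTGCATGatgctgctgct
Cacna2d1 3′ UTR base 2403, exon 39, chr5:16373066-16373093, plus strand: ttaaaactataTGCATGgtaacaaattg

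The 6 sites fell in 3 genes: Cacna1c had 2 in a 3′ UTR of 6652 bases, Cacna1d had 1 in 2132 bases and Cacna2d1 had 3 in 3837 bases. Cacnb2, with 1832 bases, and Rrad, with 381 bases, had 0 in the 3′ UTR. In the coding sequence of the same transcripts there were 3 sites in Cacna1d, 2 each in Cacna1c and Cacna1h, 1 each in Cacna1g, Cacnb2 and Rrad, and 0 in the other 4 genes. Among the genes compared whose 3′ UTR is of like length, 87.7% held at least 1 site at the length of Cacna1c, 74.5% at that of Cacna2d1, 45.6% at that of Cacnb2 and 12.7% at that of Rrad. At least 2 sites, the number in Cacna1c, were present in 64.5% of 3′ UTRs of its length. At the length of Cacna1d, 50.8% held at least 1 site. At least 3 sites were present in 19.1% of 3′ UTRs of the length of Cacna2d1. The median log2 ratio (Rbfox2 OE to control) was -0.05 for the 7004 genes compared with 0 sites, -0.08 for the 2356 genes with 1 site and -0.14 for the 1424 genes with 2 or more, whose 3′ UTRs were also longer (median 727, 1780.5 and 3284.5 bases).

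The table gives 1 FPKM value per gene and group, in which the libraries of the group are combined, with a lower and an upper bound set by the authors' software. FPKM scales fragments by transcript length and sequencing depth, so levels can be set side by side per length. There is no value per library, hence no replicate spread, no test and no p-value, and the depth in reads is unknown. The log2 ratio below is log2 of (Rbfox2 OE FPKM + 1) over (control FPKM + 1). This scale shrinks the differences of weakly expressed genes, and the range given pairs the nearest and the farthest bounds. A gene is counted as 2-fold lower at a log2 ratio of -1 or less, and as having separate bounds when the interval of one group lies wholly outside that of the other. Bounds stand in parentheses after each level. Counts are over the 11697 genes whose mean over both groups reached 1 FPKM, called the genes compared. Rbfox2 itself, the check on the labels, stood at 14.7 FPKM in control cells against 293 FPKM with Rbfox2 overexpressed with separate bounds. Cardiomyocyte markers were among the most abundant genes, with Tnnt2 at 10609 and 6917 FPKM, and Myh6 had no estimate in either group.

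Messenger RNA of the principal subunits of the main cardiac L-type channel, Cacna1c, Cacnb2 and Cacna2d1, was lower in Rbfox2 OE. Messenger RNA of the channel inhibitor Rrad stood at nearly the same level in both groups. Cacnb2 was at 10.3% of its control level, Cacna1c at 20.4%, Cacna1s at 28.4% and Cacna2d1 at 38.3%, all with separate bounds. Of the 10 genes, 7 had a lower and 3 a higher value in Rbfox2 OE. Of the 8 that met the minimum of 1 FPKM, 7 were lower and 1 higher. Among the 11697 genes compared, 6289 were lower and 5408 higher. At the 2-fold threshold 5 of the 10 were lower, against 10.02% of all genes compared, and 0 were higher, against 6.97%. Bounds were separate for 4 of the 10, in each case lower, against 9.33% of all genes compared, and for 0 in the higher direction, against 6.67%. These 4 were also 2-fold lower, which 7.42% of all genes compared were with separate bounds. With the values rescaled to equal sums without the mitochondrial and the 10 most abundant genes, 7.73% of genes compared were 2-fold lower and the same counts of 5 and 4 held. Centred on the median cardiomyocyte marker, a setting chosen after the values were seen, the count of 5 became 2, Cacnb2 and Cacna1c, against 2.66% of all genes compared. The rescaling to equal sums moved the median of all genes from -0.06 to 0.07. All 10 estimates carried the status OK in both groups. The minimum of 1 FPKM was met by 8 of the 10 and missed by Cacna1d and Cacnb3, and Cacna1h met it only through its control value.

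**Figure D1:**
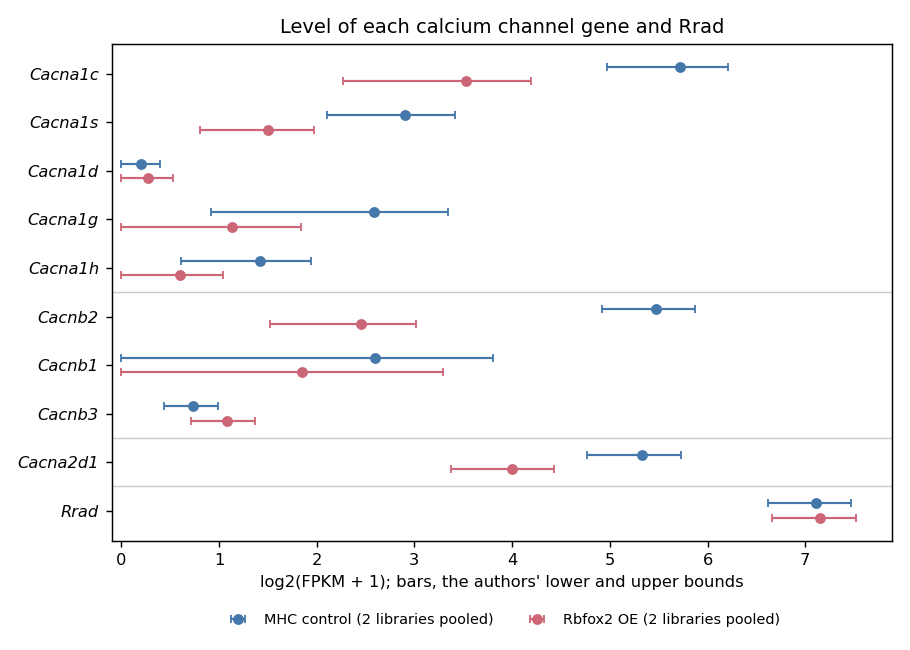
FPKM of each gene as log2(FPKM + 1) on the horizontal axis, in the MHC control (blue) and Rbfox2 OE (red), each point being the pooled value of 2 libraries and each bar the authors' lower and upper bounds. The bars of Cacna1c, Cacna1s, Cacnb2 and Cacna2d1 do not overlap between the groups, those of the other 6 genes do, and Rrad is the highest gene in both groups.

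In the control the order of levels was Rrad, then Cacna1c, Cacnb2 and Cacna2d1 close together, then the remaining genes. The bounds of Rrad lay above those of Cacna1c, whereas those of Cacna1c, Cacnb2 and Cacna2d1 overlapped, so these 3 cannot be ordered. A gap without overlap separated Cacna2d1 from Cacna1s, the next gene. Cacna1s, Cacnb1 and Cacna1g overlapped one another, Cacna1h overlapped the 2 genes beside it in the order, and Cacna1d was lowest with bounds below those of Cacnb3. In Rbfox2 OE the order became Rrad, Cacna2d1, Cacna1c, Cacnb2, Cacnb1, Cacna1s, Cacna1g, Cacnb3, Cacna1h and Cacna1d. Below Rrad every neighbouring pair in that order had overlapping bounds, although those of Cacna2d1 lay above those of Cacnb2.

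Among the pore-forming subunits, Cacna1c encodes the L-type pore of ventricular muscle (ENSMUSG00000051331, GRCm38 chr6:118587240-119196418, minus strand, 27 annotated transcripts). It stood at 51.6 FPKM (30.3 to 73.0) in control cells against 10.5 FPKM (3.81 to 17.2) with Rbfox2 overexpressed. The groups did not overlap, and the value was 4.90-fold lower with a log2 ratio of -2.19 (range -3.94 to -0.78). Only 105 of the 11697 genes compared, 0.898%, had a log2 ratio as low. By level, Cacna1c ranked 1375th among the genes compared in the control and 4726th in Rbfox2 OE.

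Cacna1s encodes the L-type pore and voltage sensor of skeletal muscle (ENSMUSG00000026407, chr1:136052750-136119822, plus strand). It was present at 6.48 FPKM (3.29 to 9.66) in control cells against 1.84 FPKM (0.742 to 2.93) with Rbfox2 overexpressed. The bounds were separate by a small margin, with a log2 ratio of -1.40 (range -2.61 to -0.13). Markers of skeletal muscle fibres were near 0 beside it: none of the 11 reached a mean of 1 FPKM, their summed level was 2.03 FPKM in control cells against 2.40 FPKM with Rbfox2 overexpressed, and the highest single value was 1.10 FPKM, of Tnni2 in the control. The defining fast myosin Myh4 was listed at 0 in the control and at 0.0020 FPKM in Rbfox2 OE, and the muscle regulator Myog was listed at 0 in both groups.

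The other L-type pore gene, Cacna1d, known from pacemaker cells and atria (chr14:30039939-30491455, minus strand), was close to the lower end of detection. It stood at 0.151 FPKM (0 to 0.316) in control cells against 0.207 FPKM (0 to 0.438) with Rbfox2 overexpressed, with overlapping bounds. Its annotated span overlaps 7 other genes, 6 of them on the opposite strand, among them Dcp1a at 2.08 and 2.53 FPKM; the use of strand by the authors' counting is not given in the sources used here, so its value is uncertain.

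The T-type pores were lower in Rbfox2 OE, but within their bounds. Cacna1g (chr11:94408391-94474198, minus strand) stood at 5.02 FPKM (0.885 to 9.14) in control cells against 1.19 FPKM (0 to 2.58) with Rbfox2 overexpressed. Its value was 4.23-fold lower, past the 2-fold threshold at a log2 ratio of -1.46, yet the bounds overlapped and the range of the ratio ran from -3.34 to 0.92. Cacna1h (chr17:25374285-25433783, minus strand) stood at 1.68 FPKM (0.527 to 2.83) and 0.517 FPKM (0 to 1.05), a log2 ratio of -0.82, also with overlapping bounds. Its plain ratio was 3.25-fold lower, and with a pseudocount of 0.1 its log2 ratio was -1.53. Of 6 conduction system markers, none at 0, 2 were compared, and their summed level was 6.98 and 4.38 FPKM. The pacemaker channel Hcn4 stood at 2.44 FPKM (1.59 to 3.28) and 0.296 FPKM (0.129 to 0.464) with separate bounds. It met the minimum only through its control value. Cntn2, which was under the minimum, stood at 1.16 FPKM (0.653 to 1.66) and 0.334 FPKM (0.0182 to 0.649). Its bounds were separate by a very small margin. Tbx3 stood at 3.19 and 3.34 FPKM with overlapping bounds. The part of these markers in the T-type values was not tested.

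Among the beta subunits, Cacnb2 is the main one of heart muscle (ENSMUSG00000057914, chr2:14603088-14987908, plus strand, 16 annotated transcripts). It had the lowest log2 ratio of the 10 genes. Its level was 43.4 FPKM (29.3 to 57.4) in control cells against 4.49 FPKM (1.87 to 7.11) with Rbfox2 overexpressed, which is 9.66-fold lower. The log2 ratio was -3.02, and even the nearest bounds left it at -1.90. As low a ratio was reached by 21 of the 11697 genes compared, Cacnb2 included, or 0.180%. Its span overlaps 15 other annotated genes, each at or below 0.367 FPKM in both groups.

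Cacnb1, the beta subunit that partners Cacna1s in skeletal muscle (chr11:98001508-98023034, minus strand), could not be told apart between the groups. It stood at 5.06 FPKM (0 to 13.0) in control cells against 2.60 FPKM (0 to 8.76) with Rbfox2 overexpressed, and the range of its log2 ratio of -0.75 ran from -3.80 to 3.29. Cacnb3, a beta subunit best known from brain and smooth muscle (chr15:98630840-98644529, plus strand), had a higher value in Rbfox2 OE, 1.11 FPKM (0.635 to 1.59) against 0.667 FPKM (0.356 to 0.978), again with overlapping bounds. Smooth muscle and pericyte markers were higher beside it, with a summed level of 139.5 FPKM in control cells against 319 FPKM with Rbfox2 overexpressed, none of the 6 at 0. Their part in the value of Cacnb3 was not tested.

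Cacna2d1 encodes the main alpha2delta subunit of heart (ENSMUSG00000040118, chr5:15934691-16374511, plus strand, 12 annotated transcripts). It stood at 39.1 FPKM (26.2 to 51.9) in control cells against 15.0 FPKM (9.34 to 20.6) with Rbfox2 overexpressed. The groups did not overlap, and the value was 2.61-fold lower with a log2 ratio of -1.33 (range -2.35 to -0.34). This was the smallest difference among the 4 genes with separate bounds.

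Rrad (ENSMUSG00000031880, chr8:104628070-104631327, minus strand, 2 annotated transcripts) stood apart from the 4 subunits with separate bounds. Its level was 136.8 FPKM (97.4 to 176) in control cells against 141.0 FPKM (99.9 to 182) with Rbfox2 overexpressed, with almost coincident bounds. The log2 ratio was 0.04 and its range, -0.81 to 0.90, stayed within 2-fold in either direction. Rrad ranked 548th by level among the genes compared in the control and 487th in Rbfox2 OE. An antisense gene, Gm33023, overlaps 496 bases of it and was not analysed here.

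**Figure D2:**
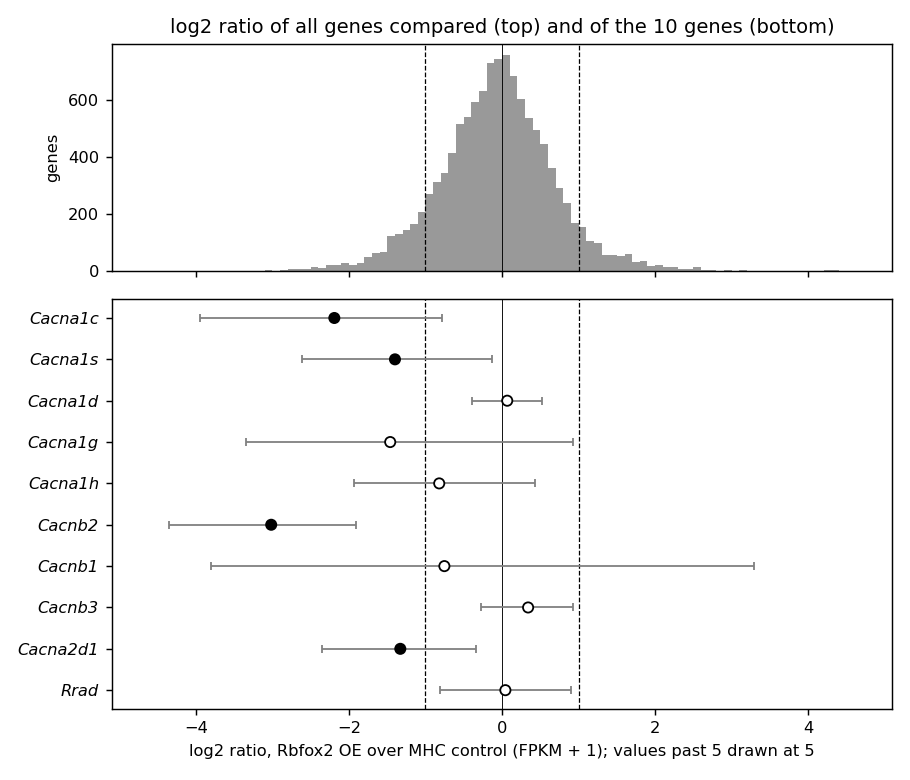
Top, number of genes at each log2 ratio (Rbfox2 OE to control) for the 11697 genes compared. Bottom, the log2 ratio of each of the 10 genes, with bars from the nearest and the farthest pair of the authors' bounds and filled points for separate bounds; dashed lines mark 2-fold. Cacnb2 at -3.02 and Cacna1c at -2.19 lie in the far left tail, and Rrad at 0.04 lies at the centre.

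The make-up of the subunit families was compared next by summing FPKM over all genes of a family, members of the list or not. The 10 alpha1 genes summed to 68.2 FPKM in control cells against 15.9 FPKM with Rbfox2 overexpressed, 4.30-fold lower, and Cacna1c made up 75.7% and 66.3% of these sums. The 4 beta genes summed to 49.2 and 8.29 FPKM, 5.93-fold lower. Cacnb2 made up 88.2% of the beta sum in the control and 54.2% in Rbfox2 OE, where Cacnb1 took 31.3% in place of 10.3% and Cacnb3 took 13.4% in place of 1.36%. The 4 alpha2delta genes summed to 40.0 and 15.7 FPKM, 2.55-fold lower, and Cacna2d1 made up 97.7% and 95.4%. The share of Cacnb1, and with it that of Cacnb2, rests on a Cacnb1 value whose bounds reach 0 in both groups. Cacnb2 over Cacnb1 was 8.57 in the control (from 2.27) and 1.73 in Rbfox2 OE (from 0.213). Neither range has an upper limit, so the 2 ranges overlapped.

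**Figure D3:**
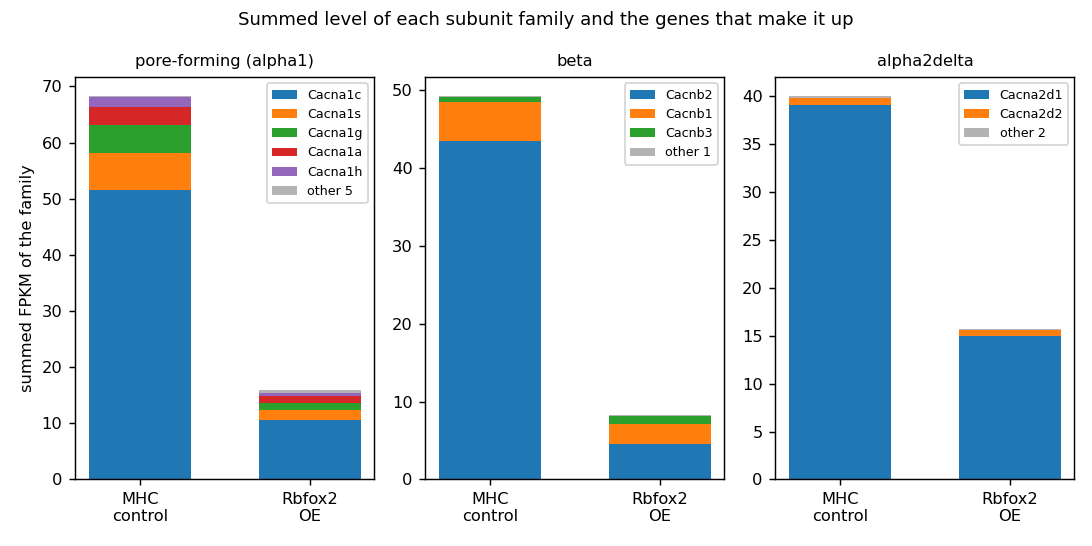
Summed FPKM (vertical axis) of the alpha1, beta and alpha2delta genes in the MHC control and in Rbfox2 OE, with each gene's part in colour and the rest in grey. All 3 sums are smaller in Rbfox2 OE. By the pooled values Cacnb2 takes 54.2% of the beta sum there against 88.2%, but the bounds of Cacnb1 reach 0 in both groups.

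Ratios between the genes gave the balance of inhibitor to channel. There were 3.15 FPKM of Rrad per FPKM of Cacnb2 in the control (1.70 to 6.002 from the bounds) and 31.4 in Rbfox2 OE (14.0 to 97.4), which do not overlap. For Rrad over Cacna1c the ratio was 2.65 in the control (1.33 to 5.82) and 13.4 in Rbfox2 OE (5.79 to 47.8), and the 2 ranges met at their ends. Cacnb2 over Cacna1c was 0.841 and 0.427, and Cacna2d1 over Cacna1c was 0.757 and 1.42. The ranges of both ratios overlapped widely between the groups. Cacnb2 over Cacna2d1 was 1.11 in the control (0.565 to 2.19) and 0.3 in Rbfox2 OE (0.0909 to 0.761), with ranges that overlapped less. These are ratios of messenger RNA and not of protein.

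The other genes of the channel family were mostly near 0. Of 17 further channel genes, 2 reached the minimum, and 0 of these were 2-fold apart. Cacna1a, the pore of a neuronal channel, stood at 3.26 and 1.37 FPKM, and Cacng7 stood at 0.996 and 2.35 FPKM, both with overlapping bounds. One gene under the minimum, named after its value was seen, had separate bounds and was lower in Rbfox2 OE: Cacng6, a gamma subunit gene, at 1.19 FPKM (0.435 to 1.94) and 0.0871 FPKM (0 to 0.232).

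Of the 4 RGK genes, Rrad included, 3 were compared and 0 were 2-fold apart. Gem stood at 3.39 FPKM (2.13 to 4.64) in control cells against 5.23 FPKM (3.39 to 7.07) with Rbfox2 overexpressed, and Rem1 at 1.45 and 1.65 FPKM. Rrad made up nearly all of the RGK sum, which was 141.6 FPKM in control cells against 147.9 FPKM with Rbfox2 overexpressed.

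Among 22 partners and regulators of the L-type channel, 16 were compared, with 3 lower at 2-fold and 0 higher, beside 10.02% and 6.97% of all genes compared. Their median log2 ratio was -0.51, beside -0.06 over all genes compared. Adrb1, the beta1-adrenergic receptor, stood at 8.64 FPKM (5.89 to 11.4) in control cells against 3.02 FPKM (1.92 to 4.12) with Rbfox2 overexpressed. Prkar1a, a regulatory subunit of protein kinase A, stood at 159.7 FPKM (113 to 206) and 76.6 FPKM (53.5 to 99.7). The third, the kinase anchor Akap7, had overlapping bounds. The list of triadic calcium release and extrusion genes had 6 genes compared, 5 of them lower at 2-fold with separate bounds, beside 7.42% of all genes compared. None was 2-fold higher, and the median was -2.05. The leading 4 were Slc8a1, the sodium-calcium exchanger, at a log2 ratio of -2.73, Pln, the inhibitor of the calcium pump, at -2.42, Ryr2, the release channel, at -2.39 and Asph, which encodes junctin, at -1.71. The calcium pump gene Atp2a2 had no control estimate.

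**Figure D4:**
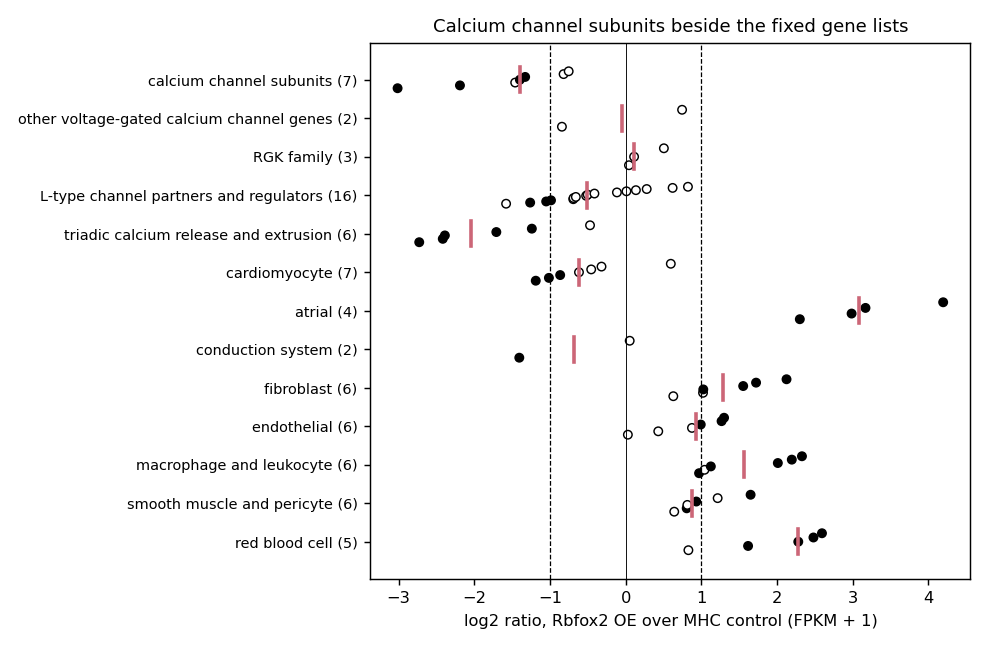
Log2 ratio (Rbfox2 OE to control) for each gene compared that has an estimate in both groups, by list, with the number of genes in parentheses. Filled points have separate bounds, red bars are list medians and dashed lines mark 2-fold. The top row holds the channel subunits compared without Rrad, which is drawn with the RGK family. The median of that row is -1.40, the value of Cacna1s. The median is -0.62 for the cardiomyocyte markers, and it lies above 0 for fibroblast, endothelial, macrophage, smooth muscle, red blood cell and atrial markers.

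Markers of heart muscle and of other cells differed between the groups as well. The 7 cardiomyocyte markers with an estimate had log2 ratios from -1.19 to 0.60 with a median of -0.62, and 3 had separate bounds, all lower in Rbfox2 OE. Summed levels of other markers were higher there: 201.6 and 465.7 FPKM for fibroblasts, 162 and 310 FPKM for endothelium, 52.7 and 217 FPKM for macrophages and leukocytes, and 56.6 and 295 FPKM for red blood cells, with none of the markers of these 4 lists at 0. Atrial markers summed to 239 FPKM in control cells against 3149 FPKM with Rbfox2 overexpressed. In a preparation of many cells, fewer cells of a type and less RNA per cell cannot be told apart. The part of these markers in the channel differences was not tested. Measured from the median cardiomyocyte marker, Cacnb2 was at -2.40 and Cacna1c at -1.57. On that scale Cacna1g was at -0.84, Cacna1s at -0.78, Cacna2d1 at -0.71 and Rrad at 0.66.

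The length of a gene, examined after the values were seen, also moved with its ratio. The 3 most abundant channel subunits span 609 kb (Cacna1c), 440 kb (Cacna2d1) and 385 kb (Cacnb2), while Rrad spans 3.26 kb. Among protein-coding genes compared, the median log2 ratio was 0.02 for the 2568 genes of up to 10 kb, -0.11 for the 3217 genes above 30 and up to 100 kb, and -0.71 for the 236 genes above 300 kb. The share that was 2-fold lower was 6.04%, 11.1% and 32.6% in these classes. Restricted to genes with a mean of 10 FPKM or more, 54.5% of the 77 genes above 300 kb were 2-fold lower, with a median of -1.12. Within those 77 genes, 2 had a ratio as low as that of Cacnb2, itself included, 11 as low as Cacna1c and 31 as low as Cacna2d1. The part of gene length in the difference between the subunits and Rrad was not tested. Of the shorter members, Cacna1g, Cacna1s and Cacna1h fell in the class above 30 and up to 100 kb, in which 3.92%, 4.97% and 15.5% of 3217 genes had a ratio as low. For Cacnb1, in the class above 10 and up to 30 kb, the share was 13.2% of 3608 genes, and for Rrad, in the class up to 10 kb, 51.2% of 2568.

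**Figure D5:**
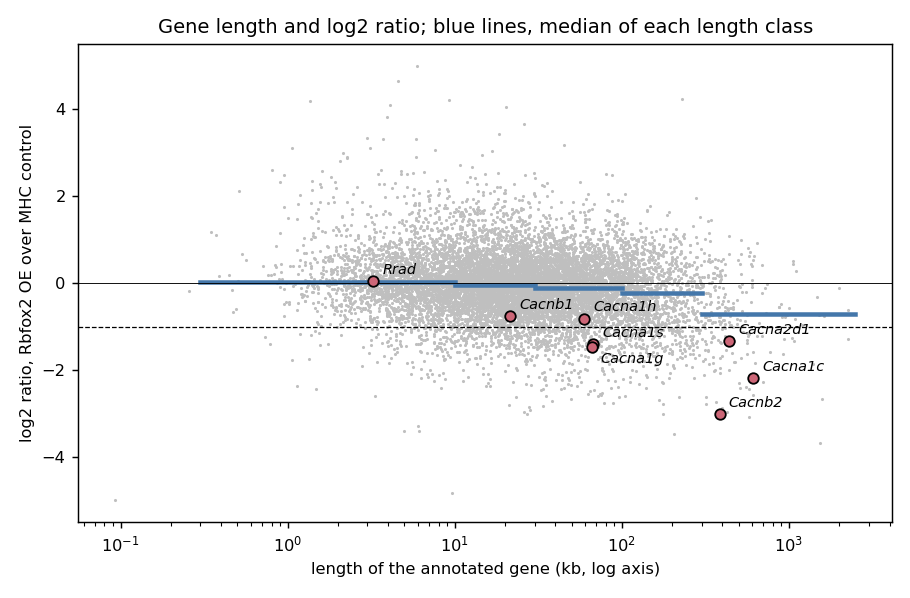
Log2 ratio (Rbfox2 OE to control) (vertical axis) against the annotated length of the gene in kb (log axis) for the protein-coding genes compared (grey), with the 8 genes of the set that met the minimum in red and the median of each length class in blue. Medians decline from 0.02 in the shortest to -0.71 in the longest class, in which Cacna1c, Cacnb2 and Cacna2d1 lie below the median and Rrad lies among the short genes.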

How the data were processed

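RNA of isolated mouse cardiomyocytes was sequenced on an Illumina HiSeq4000 after polyA selection with a stranded TruSeq kit, per the labels' protocols. The deposited values are FPKM from Cuffdiff, per the file headers and the submitters' processing notes, and the bounds made by the authors are in FPKM with a level that is not stated. The submitters' processing notes list Cuffdiff 2.2.1, STAR 2.4.2a, Trimmomatic, Picard 1.119, HTSeq and DESeq2 and the build GRCm38 (mm10), with no role or order. The gene models and strand setting of the authors are not given in the sources used here.

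The 4 libraries form 2 groups of 2 by their title labels, and each column holds 1 pooled value per group, so no test was possible and the depth is unknown. Columns of single libraries left unused numbered 0. For 110 gene names with several rows the values were added up. Log2 ratios used a pseudocount of 1 FPKM, genes were compared at a mean of at least 1 FPKM, and counts used a 2-fold threshold or separate bounds. Coordinates are from GENCODE M21 on GRCm38, in which 99.2% of identifiers were found. The functions were tested on simulated data. Work was done in Python 3.11.15 with pandas 2.3.3 and numpy 2.4.6.

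The 10 genes and the lists of other genes were chosen with earlier results of these data known. Every one of the 10 is named; from each other list of channel genes up to 4 genes are named that are 2-fold apart with separate bounds, largest first, and others are given as values only. Alternatives covered the pseudocount, the minimum, the threshold, the scaling and the status.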

Additional observations from a re-analysis of the deposited data

How the results depend on the processing

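No paired analysis was possible because each group has 1 pooled value and none per library, and leaving out each library in turn was not run for the same reason. The unknown spread between libraries and the unknown depth limit every value here, most of all those near 0. All 10 log2 ratios kept their sign under the 5 settings run on them; Cacna1c lay between -2.28 and -1.57, Cacnb2 between -3.24 and -2.35, Cacna2d1 between -1.38 and -0.71 and Rrad between 0.04 and 0.66. The count of 5 of the 10 genes 2-fold lower became 3 with a pseudocount of 5, against 4.78% of all genes compared. It became 3 with a minimum mean of 5 FPKM, which leaves 4 of the 10 genes, against 12.2% of the 7522 genes left. At a 4-fold threshold it became 2, against 1.32% of all genes compared. The 1987 genes at least 2-fold apart became 863 with a pseudocount of 5, 4520 at 1.5-fold and 290 at 4-fold. Centred on the median cardiomyocyte marker, a shift of 0.62 chosen after the data were seen, the count was 2, Cacna1d stood at 0.68, Cacnb3 at 0.96 and 3213 genes were 2-fold apart, 311 lower and 2902 higher. As deposited, 59.0% of the 2-fold genes were lower; rescaling without mitochondrial and top genes gave 45.9%. The median of the members compared, -1.36, became -0.72 with a pseudocount of 5 and -0.75 centred on the cardiomyocyte markers, and reached -1.76 with a minimum mean of 5 FPKM. Other values of single genes kept their direction and lay within the range of their bounds, and other counts moved by no more than 1.5 times.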

Other observations

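The nearest protein-coding gene compared on either side of each of the 10 genes was taken, without genes that overlap the member. Left out in this way were Dcp1a, which overlaps Cacna1d, and Dcp1b, which overlaps 21166 bases of Cacna1c on the opposite strand. Dcp1b stood at 1.15 and 1.77 FPKM. The 20 neighbours had a median log2 ratio of -0.13, with 3 at 2-fold lower and 2 at 2-fold higher. Among all genes compared these shares were 10.02% and 6.97%, so the counts do not set the neighbours apart. The neighbours of the 3 main L-type subunits were not lower with separate bounds. Adipor2, 157 kb from Cacna1c, stood at 27.1 FPKM in control cells against 35.2 FPKM with Rbfox2 overexpressed, and Nsun6, 7.22 kb from Cacnb2, at 1.58 and 1.12 FPKM. The nearest genes compared beside Cacna2d1 lay far off, Sema3c at 1199.8 kb and Dmtf1 at 6772.9 kb, and Sema3c stood at 3.70 and 3.18 FPKM. On the other side of Cacnb2, Mrc1, a macrophage receptor gene, was higher in Rbfox2 OE with separate bounds, at 3.65 FPKM (2.45 to 4.86) and 12.2 FPKM (8.32 to 16.1).

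Next to Cacnb3, whose own bounds overlapped, Adcy6, which encodes a main adenylyl cyclase of heart muscle, was lower with separate bounds, at 40.7 FPKM (29.1 to 52.4) in control cells against 9.30 FPKM (6.48 to 12.1) with Rbfox2 overexpressed, a log2 ratio of -2.02. Epn3 beside Cacna1g and Lmf1 beside Cacna1h were also lower with separate bounds, at log2 ratios of -1.58 and -1.50, and Tkt beside Cacna1d was higher at 1.23.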
